A study of Homo sapiens with 15 samples.

Results

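Mitochondrial ribosomes, or mitoribosomes, translate the few mRNAs of the mitochondrial genome, all of which encode subunits of the respiratory chain or of ATP synthase. Each mitoribosome has a large subunit, which joins amino acids into a chain, and a small subunit, which reads the mRNA. Their RNA comes from the mitochondrial genome, whereas their proteins are encoded in the nucleus, made in the cytosol and imported. The genes described here are the protein-coding genes whose symbols start with MRPL or MRPS, together with DAP3, a small-subunit protein with a symbol of its own. They numbered 79 of the 60664 genes in the table, and all 79 reached 1 TPM (an abundance corrected for transcript length, with the same total in every library) in at least 3 libraries and so were among the 14899 genes tested. By the structure of the ribosome 51 belonged to the large subunit and 28 to the small one. MRPS18A and MRPS30 were counted with the large subunit, where their proteins sit, whatever their symbols say. MRPS36 was kept by its symbol, although its protein is now known as a part of the 2-oxoglutarate dehydrogenase complex.

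RNA was sequenced from HCT116, an established human colorectal carcinoma line labelled wild type, left untreated (CTR) or exposed for 72 h to an agent at 0.0154 mg/mL. The agents were hydroxytyrosol (HTyr), a phenol of the olive given as the pure compound, and extracts of the waste of olive oil production, each named for its region: AE stands for Apulia, TE for Tuscany and SE for Sicily. Each of the 5 groups held 3 libraries, which the labels call biological replicates of 1 cell line, so the p-values measure the spread between cultures of that line. The labels do not say whether the control cells received a vehicle. The bracketed codes in the titles of the TE and SE samples name the other region. The regions and descriptions were followed, and the columns were matched to them through a table of the study that holds the same values under the names TE and SE. Values for the mean of the 4 treatments do not depend on this. TPM keep no depth, so the depth of each library is unknown.

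Genes of nuclear mitochondrial proteins are known targets of the factors NRF1, GABPA (of the ETS family) and YY1, and of MYC through the E-box. To show where some of the leading genes start, windows from 250 bases before to 50 bases after the start were taken from RefSeq on GRCh38.p14, and 70 of the 79 members matched one. MRPL23 and MRPL13, the members with the largest rises in the mean of the 4 treatments, matched none. Of the 4 matched members with the largest rises, 3 are printed, 5′ to 3′ on the strand of the gene, with the 250 bases before the start and any searched motif in capitals. The fourth, MRPL11, is not printed because its RefSeq start lies inside the longer gene model of GENCODE. The MRPL16 window holds none of the 4 motifs before the start, that of MRPL32 holds 1 YY1 motif on the opposite strand, and that of MRPL27 holds 2 ETS motifs, the nearer of which begins 8 bases from the start. The last bases of the MRPL27 window lie inside its GENCODE gene model, which starts slightly further upstream.
MRPL16 (chr11:59810779-59811028, minus strand): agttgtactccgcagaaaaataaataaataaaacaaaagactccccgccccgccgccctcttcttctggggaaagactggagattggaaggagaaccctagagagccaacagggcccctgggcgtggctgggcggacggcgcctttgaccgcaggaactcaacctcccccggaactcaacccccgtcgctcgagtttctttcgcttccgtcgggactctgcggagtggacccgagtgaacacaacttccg
MRPL32 (chr7:42932126-42932375, plus strand): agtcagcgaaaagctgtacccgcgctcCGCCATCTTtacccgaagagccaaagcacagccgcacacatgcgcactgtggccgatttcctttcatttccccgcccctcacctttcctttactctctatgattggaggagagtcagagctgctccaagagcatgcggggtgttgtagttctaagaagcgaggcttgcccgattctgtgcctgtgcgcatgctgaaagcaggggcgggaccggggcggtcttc
MRPL27 (chr17:50373185-50373434, minus strand): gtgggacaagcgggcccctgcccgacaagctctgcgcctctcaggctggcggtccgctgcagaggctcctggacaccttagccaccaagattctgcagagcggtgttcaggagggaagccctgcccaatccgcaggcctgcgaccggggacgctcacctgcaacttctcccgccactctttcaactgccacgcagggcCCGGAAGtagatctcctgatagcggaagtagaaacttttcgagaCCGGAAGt

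Over whole windows and both strands, the YY1 motif (AAGATGGCG) was found in 13 of 70 members (18.6%), against 4.04% of the 10543 tested genes with a window. The ETS motif (CCGGAAG) was found in 29 members (41.4%), against 19.6%. The NRF1 core (GCGCANGCG) was in 13 members (18.6%) against 15.1%, and the E-box (CACGTG) in 6 (8.57%) against 10.2%. YY1 motifs lay wholly before the start in 3 members only, so that in the other 10 they touched or followed it, whereas ETS motifs lay before it in 23. No YY1 and ETS matches overlapped, 4 members held both, and 24 held none of the 4 motifs. Members with an ETS motif had, averaged over the 4 treatments, a median log2 fold change of 0.32, and the 41 without one 0.28. For YY1 the medians were 0.26 with the motif and 0.32 without. A match is a run of letters and was not tested as a binding site.

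The members were expressed evenly and well. Their mean TPM over the 15 libraries ran from 10.7 to 191 with a median of 61.4, while the median of the other tested protein-coding genes was 15.7. MRPL51 was the most abundant (191 TPM), followed by MRPL33 (171), MRPS23 (170), DAP3 (151) and MRPL27 (131). MRPL57 was the least abundant (10.7), preceded by MRPL50 (15.7), MRPS14 (18.3), and MRPS17 and MRPS31 (22.1 each). They lay on 21 chromosomes, with at most 9 on any one, and none on X or Y. Their longest transcripts were short, with a median of 1717 bases against 3858.5 for the others, and had a median GC content of 46.4% against 48.4%.

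The summed level of the members was higher in all treated groups. The summed TPM of the 79 genes was 4541 ± 81.6 (SD, n = 3) in untreated cells. It was 5537 ± 78.0 for AE, 5353 ± 64.7 for TE, 6321 ± 203 for SE and 5366 ± 200 for HTyr, which is 1.22, 1.18, 1.39 and 1.18 times the untreated mean. The lowest treated library, HTyr 1 at 5156.0, stood above the highest untreated one, CTR 3 at 4634.3, and the lowest SE library, at 6123.1, above every other treated library. TPM are shares of a library, so more of these transcripts per cell and fewer transcripts of other genes cannot be told apart. The share held by the 89 cytosolic ribosomal protein genes, the counterparts of the members outside mitochondria, went the other way, from 27.1 to 29.6% in untreated libraries to 23.5 to 26% with AE, TE and HTyr and 20.2 to 22.9% with SE. For every 100 TPM of cytosolic ribosomal protein genes the members held 1.6 TPM in untreated cells and 2.25 (AE), 2.14 (TE), 2.92 (SE) and 2.19 TPM (HTyr) after treatment.

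**Figure D1:**
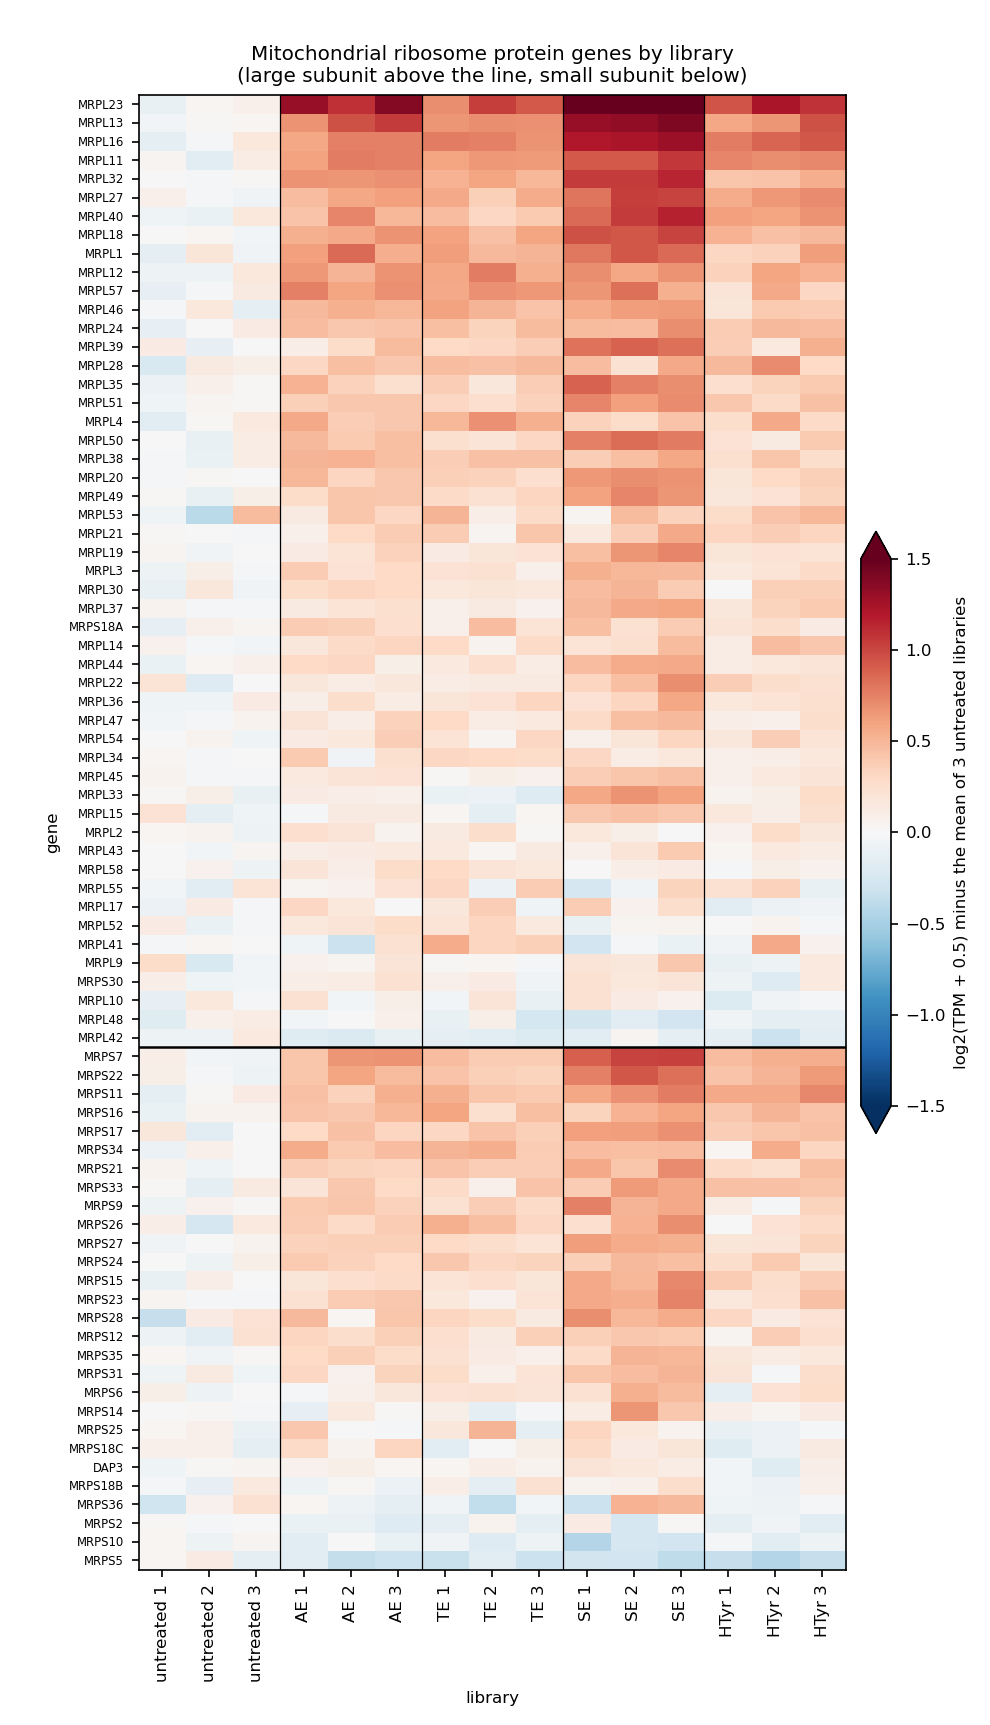
Each row is 1 of the 79 genes and each column 1 of the 15 libraries. Colour gives log2(TPM + 0.5) minus the mean of the 3 untreated libraries, with colours saturated beyond 1.5. Rows run from the largest to the smallest mean change within each subunit. Most rows are red in all 12 treated columns and darkest in the 3 SE columns, and the lowest row of each subunit (MRPL42, MRPS5) is blue.

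Each gene was then compared between groups with limma on log2(TPM + 0.5), with Benjamini-Hochberg adjustment over all genes tested. A gene is said to rise or fall below where the adjusted p was under 0.05 and the fold change over 1.5 in either direction, and to be higher or lower by adjusted p where the p alone passed. With SE 28 of the 79 members rose (35.4%), against 17% of all genes tested. With AE 9 rose (11.4%, against 10.7%), with TE 6 (7.59%, against 7.46%), with HTyr 7 (8.86%, against 7.8%), and in the mean of the 4 treatments 12 (15.2%, against 10.4%). The shares with AE, TE and HTyr were thus near those of all genes. None fell in any of these comparisons, whereas 5.81% of all genes fell with AE, 5.26% with TE, 11% with SE, 8.45% with HTyr and 7.43% in the mean of the 4.

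The changes were mostly small and in 1 direction. By adjusted p alone 47 members were higher with AE (25.8% of all genes were), 39 with TE (20.3%), 58 with SE (31.5%), 42 with HTyr (17.9%) and 56 in the mean of the 4 (28.6%). Lower by adjusted p were 1 with AE (14% of all genes), 1 with TE (13.7%), 3 with SE (20.5%), 2 with HTyr (21.5%) and 3 in the mean of the 4 (21.3%). The median log2 fold change of the members was 0.30 (AE), 0.25 (TE), 0.46 (SE) and 0.24 (HTyr), and that of all genes was 0.09, 0.05, 0.09 and -0.04. In the mean of the 4 treatments 73 of 79 had a positive fold change (54.5% of all genes did). For 38 members (48.1%) the 12 treated libraries all stood above the 3 untreated ones, which held for 15.3% of all genes, and 27 of the 38 were of the large subunit. The reverse held for 1 member, MRPS5, and for 11.8% of all genes.

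The count of members that rose depended on the scaling. With the cytosolic ribosomal protein genes taken out of the total, 14 members rose with SE (17.7%, against 12.9% of all genes) and 5 in the mean of the 4 treatments (6.33%, against 8.30%). With the dependence of each library on GC content and length taken out, 13 rose with SE (16.5%, against 13.4%) and 4 in the mean (5.06%, against 8.44%). By adjusted p alone 43 members were higher in the mean of the 4 without cytosolic ribosomal protein genes, where 21.7% of all genes were, and 42 with the GC and length dependence taken out, where 25.2% were. With AE that count went from 47 to 33 with median-ratio scaling (19.6% of all genes) and to 27 with the GC and length dependence taken out (20.1%).

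The largest rises were those of large-subunit genes. MRPL23 (chr11:1947278-1984522), whose protein lies at the exit of the tunnel through which the chain leaves, had 20.67, 22.79 and 23.65 TPM in the untreated libraries, 56.08, 48.21 and 58.79 for AE, 36.63, 46.18 and 42.64 for TE, 67.78, 81.89 and 75.63 for SE and 43.52, 52.75 and 47.99 for HTyr. No treated library overlapped the untreated ones, and SE stood above the rest. Its log2 fold change was 1.26 (AE), 0.88 (TE), 1.72 (SE) and 1.08 (HTyr), each with a standard error of 0.106, and 1.24 in the mean of the 4 (adjusted p = 5.88e-08, limma). MRPL13 had 43.9 to 46.04 TPM in untreated libraries, 67.93 to 94.41 over the 9 libraries with AE, TE and HTyr, and 112.59, 114.57 and 120.03 with SE. Again no groups of treated and untreated libraries overlapped, and the mean change was 0.91 ± 0.08 (standard error, adjusted p = 3.88e-07).

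MRPL16, a protein near the catalytic centre of the large subunit, had 26.86, 29.29 and 33.06 TPM in untreated cells and 44.65 to 72.67 in the treated libraries, with the 3 SE libraries (69.05, 69.9 and 72.67) above all others. Its change was 0.88 ± 0.06 in the mean of the 4 (adjusted p = 7.07e-08). MRPL11, of the stalk base where translation factors dock, went from 37.31 to 44.9 TPM in untreated cells to 62.73 to 87.0 in treated ones, with a mean change of 0.75 ± 0.06 (adjusted p = 1.17e-07). These 4, MRPL23, MRPL13, MRPL16 and MRPL11, were the members that rose with every treatment, and they kept the call in the mean of the 4 under every alternative tried.

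MRPL32, a protein that must be cut by a protease of the inner membrane before it can join the ribosome, was the most tightly measured of the leading genes. Its untreated libraries held 40.86, 41.5 and 41.74 TPM, those with AE 65.72, 66.45 and 66.81, with TE 58.72, 59.52 and 62.73, with SE 86.13, 86.21 and 91.86, and with HTyr 55.33, 55.88 and 60.43. The untreated, AE and SE libraries formed 3 ranges without overlap, while the ranges with TE and HTyr overlapped. The change with SE was 1.08 ± 0.05 and in the mean of the 4 0.69 ± 0.04 (adjusted p = 1.41e-08). Next in the mean of the 4 came MRPL27 (0.66), which lies by the catalytic centre, MRPL40 (0.65), MRPL18 of the central protuberance (0.65), MRPL1 of the stalk at the exit site for tRNA (0.63) and MRPS7 (0.62).

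MRPS7, a protein of the head of the small subunit, was the only small-subunit member to rise in the mean of the 4 treatments. It had 54.91, 55.14 and 61.08 TPM in untreated cells, 74.2 to 91.06 with AE, TE and HTyr and 106.22, 115.09 and 116.84 with SE. MRPL12, whose copies form the flexible stalk that recruits translation factors, had 77.56, 78.09 and 91.4 TPM in untreated cells and 104.53 to 139.8 in treated ones, and in contrast to MRPS7 its 4 treatments lay close together, with changes of 0.61 (AE), 0.63 (TE), 0.65 (SE) and 0.49 (HTyr). MRPL57, the least abundant member, went from 6.78, 7.35 and 8.23 TPM to between 8.58 and 13.6. The mean changes of MRPL12 (0.59) and MRPL57 (0.59) were so close to the threshold that leaving out a single library ended the call: without CTR 1, CTR 2, AE 3, TE 2 or HTyr 2 for both, and also without AE 1, TE 3 or SE 2 for MRPL57. MRPS7 kept the call without each single library but not with median-ratio scaling (0.57), quantile normalization (0.55), cytosolic ribosomal protein genes left out (0.54) or the GC and length dependence taken out (0.47). MRPL27, MRPL40, MRPL18 and MRPL1 also lost it under some of these settings, and MRPL32 with the GC and length dependence taken out (0.52). Without CTR 1 MRPL1 also lost it, at 0.56, and MRPS22 (0.60) gained it. MRPS11 gained it without CTR 3, at 0.61.

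**Figure D2:**
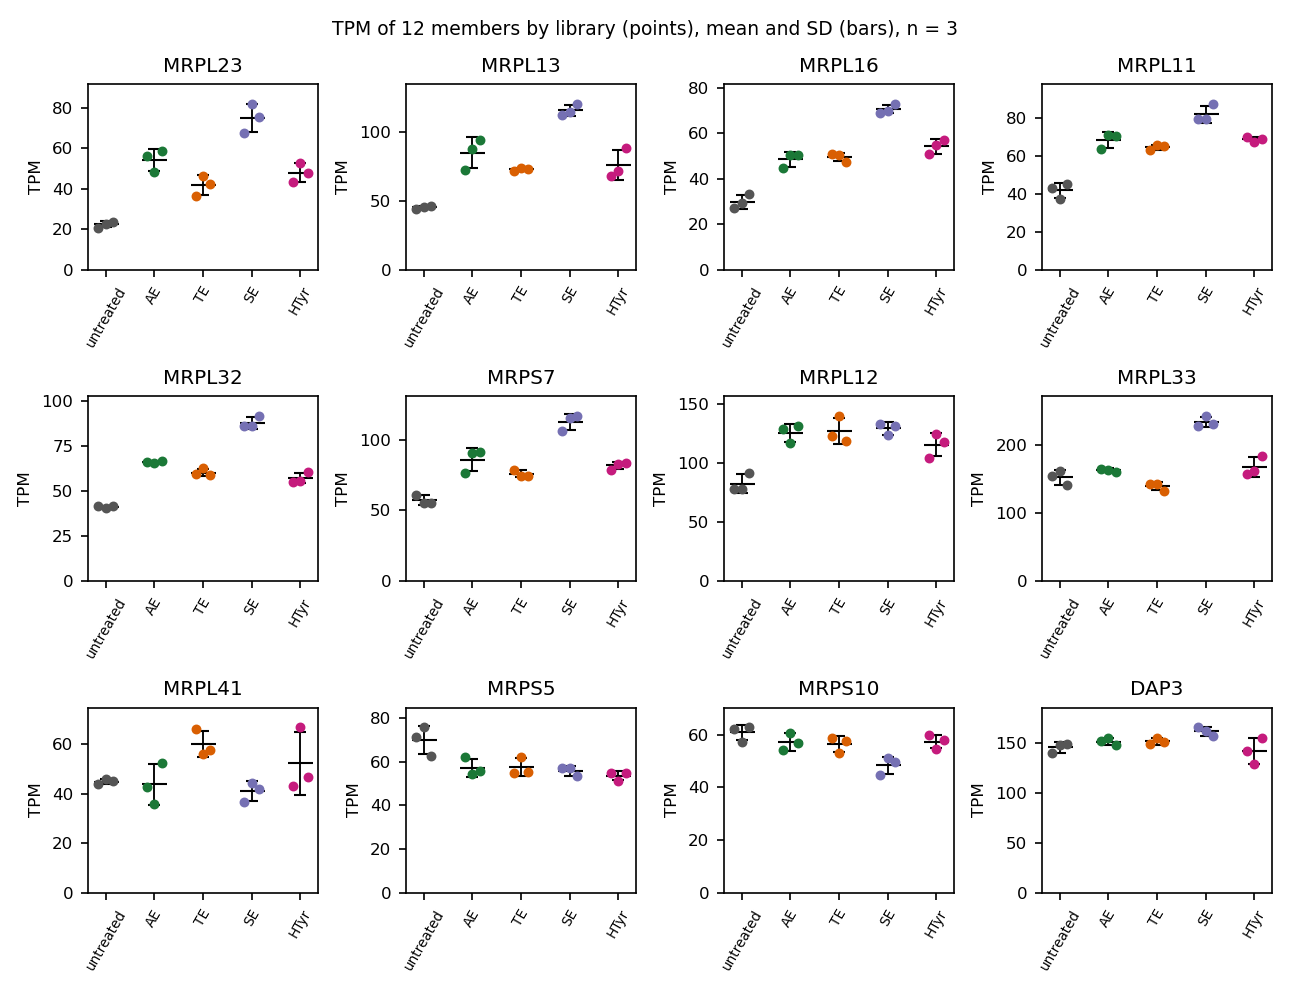
TPM of 12 members in each group, with 1 point per library and bars for the mean and SD of 3 libraries. All axes start at 0. MRPL23, MRPL13, MRPL16, MRPL11, MRPL32 and MRPS7 are lowest in untreated cells and highest with SE, MRPL12 is level over the treatments, MRPL33 is raised with SE, and MRPS5 is lower in every treated group.

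Few members went down, and by little. MRPS5, a protein at the channel where mRNA enters the small subunit, had 62.79, 71.31 and 75.8 TPM in untreated cells and 51.26 to 62.17 in the 12 treated libraries. The lowest untreated and the highest treated library were 0.62 TPM apart. It was lower by adjusted p with each treatment and by -0.31 ± 0.06 in the mean of the 4 (adjusted p = 7.44e-04). MRPS10, of the head of the small subunit, was lower with SE (44.84, 49.55 and 50.97 TPM against 57.43, 62.31 and 62.82), by -0.33 ± 0.07 (adjusted p = 0.00117), and by -0.15 in the mean of the 4. MRPL42 was lower by -0.16 in the mean of the 4 (adjusted p = 0.0353), but at 0.01 with the GC and length trend removed (adjusted p = 0.856). MRPL48 was lower by adjusted p with SE and no other treatment, by -0.25 (adjusted p = 0.0348). The 4 members with a negative fold change under all treatments were MRPL42, MRPS10, MRPS2 and MRPS5.

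The medians of the subunits lay close together, and more large-subunit genes passed the fold, a difference that was not tested. Averaged over the 4 treatments, the large-subunit genes had a median log2 fold change of 0.30 and the small-subunit genes one of 0.34. By treatment the large and small medians were 0.29 and 0.31 (AE), 0.25 and 0.23 (TE), 0.47 and 0.46 (SE), and 0.25 and 0.19 (HTyr). The large-subunit median was thus the higher with TE, SE and HTyr and the lower with AE. The difference of the medians in the mean of the 4 was -0.05, and it took the other sign without CTR 1 (0.03). Between libraries of a group, the difference of the 2 subunit medians within a library had an SD of 0.0432. Members that rose were 9 large and 0 small with AE, 6 and 0 with TE, 20 and 8 with SE, 6 and 1 with HTyr, and 11 and 1 in the mean of the 4. As shares of each subunit these were 39.2% and 28.6% with SE, where 17% of all genes rose, and 21.6% and 3.57% in the mean of the 4, where 10.4% did. By adjusted p alone 38 of the 51 and 18 of the 28 were higher in the mean of the 4. The summed TPM of the large subunit was 1.80 ± 0.01 times that of the small one in untreated cells, with 1.788 to 1.814 over the 3 libraries. In the 12 treated libraries it ran from 1.867 to 1.936, above all untreated ones. Groups of treated libraries overlapped with each other in this ratio.

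**Figure D3:**
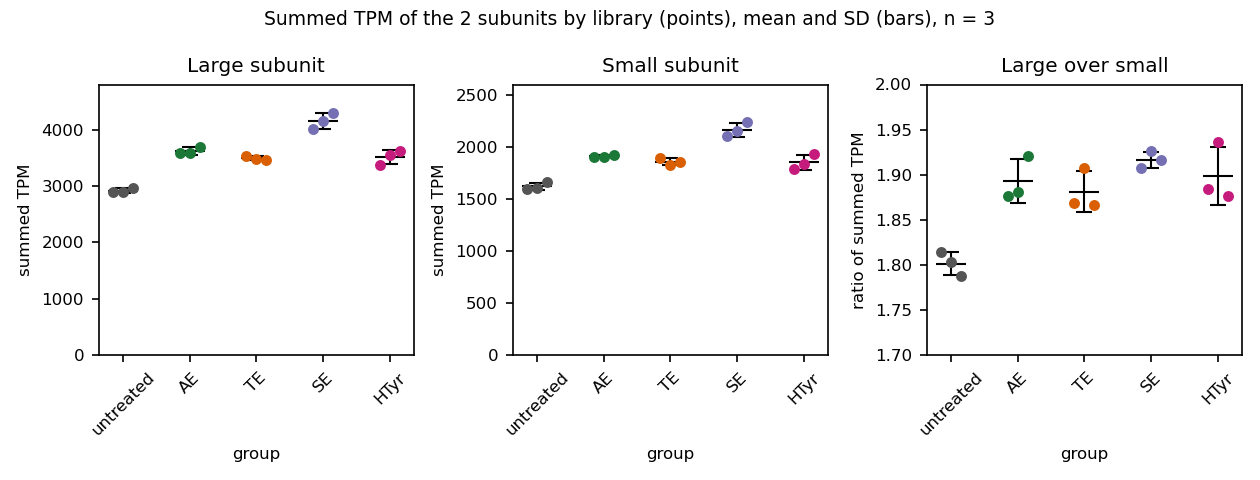
The left and middle panels give the summed TPM of 51 large-subunit and 28 small-subunit genes in each library (points) with the mean and SD of 3 libraries, on axes that start at 0. The right panel gives their ratio on an axis from 1.7 to 2.0, where the untreated libraries (1.788 to 1.814) lie below all treated ones.

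**Figure D4:**
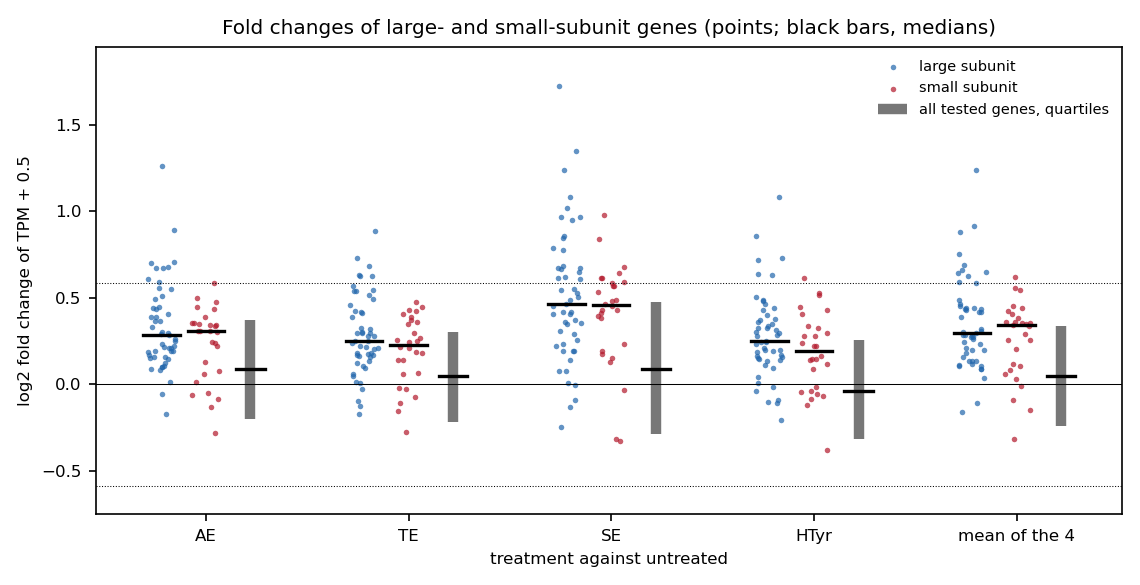
Log2 fold changes of TPM + 0.5 against untreated cells, with 1 point per gene of the large or small subunit, black bars for medians, a grey bar for the quartiles of all tested genes and dotted lines at a fold of 1.5 up or down. The subunit medians lie above the median of all genes in each comparison, and points beyond the upper dotted line are mostly of the large subunit.

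SE stood apart from the other treatments. It gave the largest of the 4 fold changes for 60 of the 79 members (75.9%, against 42.1% of all genes), and for 32 (40.5%) the 3 SE libraries lay above the other 12, which held for 12.4% of all genes. Between SE and AE 31 members were higher by adjusted p (9.81% of all genes) and 2 lower (7.71%), but none passed the fold in either direction (1.94% and 2.78%). Between SE and TE 34 were higher (17.2%) and 3 lower (9.24%), with 4 past the fold (4.7%) and none past it downwards (3.66%). Between SE and HTyr 38 were higher (22%) and 1 lower (6.17%), with 3 past the fold (4.97%) and none downwards (2.38%). The shares past the fold were near those of all genes. The SE libraries also had the lowest cytosolic ribosomal protein shares, and the part of these in the differences was not tested. With those genes left out of the total, 20, 28 and 25 members were higher by adjusted p with SE than with AE, TE and HTyr. Of all genes 6.24%, 11.8% and 15.7% were. Between SE and HTyr 17 were higher with median-ratio scaling (11.2% of all genes) and 15 with quantile normalization (10.7%), and between SE and AE 21 were with quantile normalization (8.18%). With the GC and length dependence taken out 21 were higher than with HTyr (10.4%).

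MRPL33, a protein near the exit site for tRNA, had the smallest adjusted p between SE and TE. It had 227.86, 231.02 and 242.78 TPM with SE, 160.9 to 165.17 with AE, 157.64 to 183.66 with HTyr, 132.64 to 143.19 with TE and 140.97 to 161.91 in untreated cells. The SE range lay above all others, and the ranges for AE, HTyr and TE each overlapped the untreated one. The difference was 0.75 between SE and TE (95% interval 0.61 to 0.89, adjusted p = 2.46e-06) and 0.52 between SE and AE (0.38 to 0.66, adjusted p = 1.06e-04). MRPL23 was 0.84 higher with SE than with TE and 0.64 higher than with HTyr. MRPL13 was 0.66 and 0.61 higher, MRPL40 0.63 higher than with TE, and MRPL32 0.62 higher than with HTyr (0.51 to 0.73). MRPL41, a large-subunit protein also reported to act with p53, went the other way between these extracts, with 56.18, 57.8 and 66.04 TPM with TE and 36.6, 42.01 and 44.41 with SE (-0.54 for SE minus TE, adjusted p = 0.0183), although neither differed from untreated cells (43.81, 44.99 and 45.85) beyond the threshold.

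Of the 28 members that rose with SE, 16 rose with SE alone: MRPL19, MRPL20, MRPL33, MRPL35, MRPL39, MRPL46, MRPL49, MRPL50, MRPL51, MRPS7, MRPS9, MRPS15, MRPS17, MRPS22, MRPS23 and MRPS28. No member rose with another treatment and not with SE. Of all genes too, more rose with SE (17%) than with AE (10.7%), TE (7.46%) or HTyr (7.8%). The share of all genes that rose with SE alone is not given here, so the list is not read as a trait of the members. That a gene passed with 1 treatment and not another does not show a difference between them. Among AE, TE and HTyr hardly any were told apart. No member differed between AE and TE by adjusted p (11 had an unadjusted p under 0.05, limma), MRPL32 was higher with AE than with HTyr by 0.21 (8.06% of all genes were higher), and MRPL33 lower with TE than with HTyr by -0.26 (0.973% of all genes were lower). All these comparisons with untreated cells share the same 3 untreated libraries.

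Several members carry a further role, and their changes differed in size. Of those named above, MRPL12 rose in the mean of the 4 treatments (0.59), close to the threshold, and MRPL41 was at 0.10 (adjusted p = 0.501, limma). DAP3, a GTP-binding protein of the small subunit first known for a part in cell death, had 139.67 to 149.54 TPM in untreated cells and 128.64 to 165.92 in treated ones, with a mean change of 0.06 (95% interval -0.05 to 0.16). It was higher by adjusted p with SE, at 0.15 (adjusted p = 0.0497). MRPL58, a peptidyl-tRNA hydrolase that frees stalled ribosomes, was higher by 0.13 (adjusted p = 0.0417), and MRPS27, a protein of the pentatricopeptide repeat family, by 0.35 (adjusted p = 1.43e-05), with 48.71 to 52.49 TPM untreated and 57.3 to 78.21 treated. MRPS30 was at 0.09 (adjusted p = 0.283). The 3 paralogues of the MRPS18 family, which take different places in the ribosome, did not move together past the test: MRPS18A, of the large subunit, was higher by 0.28 (adjusted p = 0.006), while MRPS18B was at 0.03 and MRPS18C at 0.09 (adjusted p = 0.747 and 0.399).

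Genes that make or serve the mitoribosome were described in lists of their own. Of 4 ribosomal proteins with other symbols, AURKAIP1 (0.53), CHCHD1 (0.52) and PTCD3 (0.26) passed as higher when the 4 treatments were averaged and GADD45GIP1 (0.19) did not pass. PTCD3 was at 0.26 with AE, 0.28 with TE and 0.62 with SE, but at -0.13 with HTyr (adjusted p = 0.288, limma). Of 29 genes for ribosome assembly and rRNA modification, 3 rose and 16 were higher by adjusted p, with 1 lower and a median of 0.32. The share that rose was near the 10.4% of all genes, of which 28.6% were higher. Those that rose were MTG1, a GTPase of large-subunit assembly (0.80), RCC1L (0.69) and MRM2, which methylates the large rRNA (0.68), and C1QBP was higher at 0.38. METTL15, which methylates the small rRNA, was lower at -0.24. Of 17 translation factors 1 rose and 8 were higher, with 1 lower and a median of 0.15. The elongation factors TUFM (0.47), TSFM (0.58) and GFM1 (0.53) and TACO1 (0.47) passed by adjusted p, the formyltransferase MTFMT rose (0.74), and the initiation factor MTIF3 was lower (-0.55).

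The products of the mitochondrial genome split. Of its 13 mRNAs MT-ND6 (0.90), MT-ND2 (0.78) and MT-CYB (0.78) rose in the mean of the 4 treatments, where 10.4% of all genes did. By adjusted p 7 in all were higher (28.6% of all genes) and 1, MT-CO1 (-0.18), was lower (21.3%). MT-RNR2, the RNA of the large subunit, had a mean of 14421.3 TPM in untreated cells and of 7330.2 (AE), 9141.3 (TE), 6818.6 (SE) and 7034.4 (HTyr) in treated ones, and fell, by -0.94 ± 0.05 (adjusted p = 1.11e-08), and MT-RNR1, the RNA of the small one, was lower at -0.34. Libraries were made from poly(A) RNA, which captures rRNA only in part, so these rRNA values need not follow the amount of rRNA. The mitochondrially encoded share of a library was 15.6 to 18.7% in untreated cells and 17.0 to 21.5% in treated ones.

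Of 14 regulators of nuclear genes for mitochondria, 13 were tested. In the mean of the 4 none rose (10.4% of all genes did) and 2 fell (7.43%), the transcription factors MYC (-0.73) and PPARG (-0.70). In single treatments 1 rose with AE (10.7% of all genes) and 1 with SE (17%). Those that fell were 3 with AE (5.81% of all genes), 1 with TE (5.26%), 2 with SE (11%) and 2 with HTyr (8.45%). PPARGC1A, a coactivator of mitochondrial biogenesis, was below the filter, with group means of 0 to 0.0167 TPM. Higher by adjusted p in the mean of the 4 (28.6% of all genes) were TFAM, which packages and transcribes the mitochondrial genome (0.55), the transcription factor TFB2M (0.29) and YY1 (0.14). Lower (21.3% of all genes), besides the 2 that fell, were PPARGC1B (-0.51), FOXJ3 (-0.35), GABPB1 (-0.32) and PPRC1 (-0.20). NRF1 (0.02), GABPA (0.16), ESRRA (-0.14) and POLRMT (-0.22) did not pass.

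**Figure D5:**
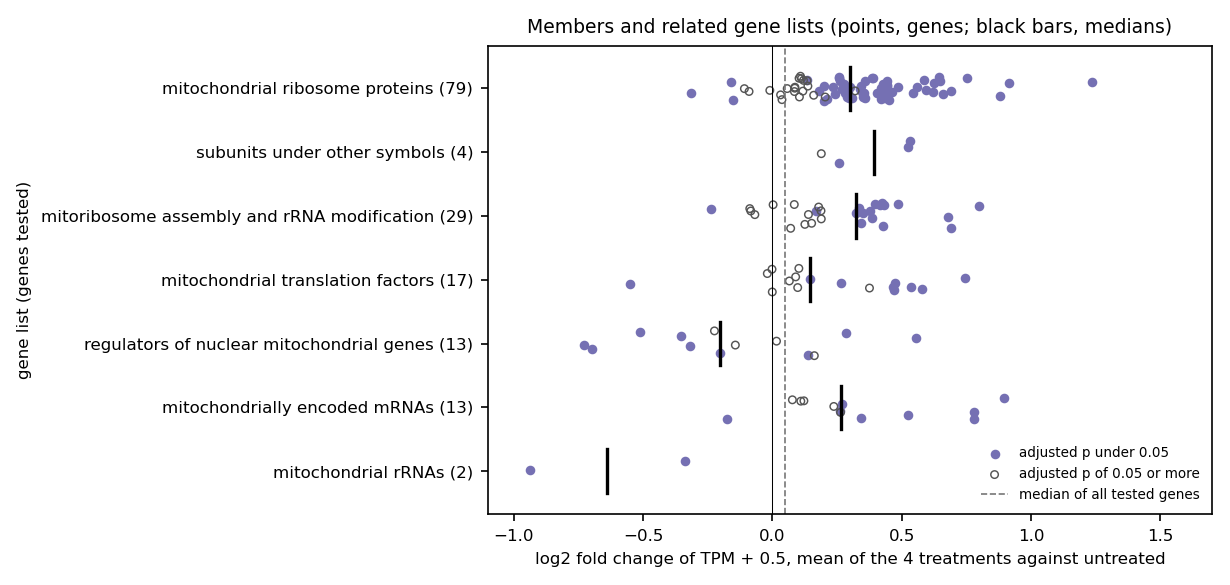
Log2 fold change of TPM + 0.5 in the mean of the 4 treatments for the members and 6 related lists, with 1 point per gene, filled where the adjusted p was under 0.05, black bars for medians and a dashed line for the median of all tested genes. Members, assembly genes and mitochondrial mRNAs lie mostly right of the dashed line, and regulators and rRNAs mostly left of it.

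By their GENCODE models, many members start close to the start of a gene on the opposite strand. Pairs whose models overlap at the start were counted along with those that point away from each other. A protein-coding gene on the opposite strand began within 1000 bases of the GENCODE start of 27 members (34.2%), against 18.5% of 12367 tested protein-coding genes. Of the 24 partners tested, 5 rose in the mean of the 4 treatments and none fell, and by adjusted p 12 were higher and 2 lower, where 10.4% of all genes rose, 7.43% fell, 28.6% were higher and 21.3% lower. Those that rose were SKA3 (1.53), a spindle protein that starts 106 bases from MRPL57, MTBP (1.14) by MRPL13, EME1 (0.78), a DNA repair nuclease subunit by MRPL27, PELI3 (0.72) by MRPL11, and the condensin subunit NCAPD2 (0.62) by MRPL51. PELI3 is a partner only by the GENCODE start of MRPL11, since the RefSeq start lies inside that model. The median change of the partners was 0.32 over all 24, and that of the members paired with them 0.41. MRPS7 and its partner GGA3 went in opposite directions, since GGA3 was lower by -0.58 (adjusted p = 2.84e-04). MRPL46 and MRPS11, which start 63 bases apart, are both members and were at 0.49 and 0.55. Each was counted as the other's partner, among the 24 tested and the 12 higher.

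Copies of members could take reads from them. The table holds 88 non-coding entries named after members, 81 of them pseudogenes, and 6 pseudogenes reached 1 TPM in any library. The highest was MRPS10P1, at 29.5 TPM in TE 2 and 0 in all other libraries. The values of MRPS10, MRPS31, MRPS36, MRPL35 and MRPL36, whose pseudogenes reached 1 TPM, are the least certain in this respect. On the same strand MRPL28 overlaps PGAP6, MRPL33 overlaps BABAM2, MRPL53 overlaps CCDC142, MRPS17 overlaps NIPSNAP2 and MRPS6 overlaps SLC5A3, so that reads in the shared stretches could go to either gene. The partition of reads by RSEM among such copies was not tested.

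The cells were checked against markers of other cell types. Of 8 markers of colorectal epithelium 6 reached 1 TPM and VIL1 and CEACAM5 did not, and their summed level was 4196.4 to 4242.6 TPM in untreated libraries and 2307.1 to 3144.1 in treated ones, mainly through lower KRT8, KRT18 and KRT19. CD68, a lysosomal gene used as a macrophage marker but not restricted to immune cells, had 16.38, 16.76 and 17.33 TPM in untreated libraries and 1.58 to 6.82 in treated ones and fell by -2.03 in the mean of the 4, and the leukocyte genes PTPRC and CD3E were at or near 0 in all libraries. Of the fibroblast list COL1A1 alone reached 1 TPM, with list sums of 6.16 to 7.97 TPM in untreated and 4.06 to 8.57 in treated libraries, and no endothelial marker did (at most 0.22 TPM in sum). The part of these changes in the results above was not tested.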

How the data were processed

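Poly(A) RNA libraries of HCT116 cells, 3 in each of 5 groups, were made with a stranded kit. The authors aligned reads to GRCh38 with STAR, quantified Ensembl genes with RSEM and deposited TPM values for each library, rounded to 2 decimals, without scaling between libraries. No version of either tool is known here. TPM keep no depth, so no counting error can be stated and no count model was fitted. Libraries were matched to groups through the labels, and columns to libraries through a table of the study that holds the same values under the sample names. Names and coordinates came from GENCODE 44, which names 60463 of 60664 identifiers.

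The 14899 genes that reached 1 TPM in 3 or more of the 15 libraries were analysed as log2(TPM + 0.5) with limma 3.58.1 in R 4.3.3. All 5 group means were fitted in 1 model with a mean-variance trend (10 residual and 3.42 prior degrees of freedom), with Benjamini-Hochberg adjustment. All fold changes carry the added 0.5, which understates changes of low genes. The script was tested on simulated data. Tables and figures were made with Python 3.11.15, pandas 2.3.3 and matplotlib 3.10.9. Alternatives were pseudocounts of 0.1 and 1, no filter, a filter on a mean of 5 TPM, median-ratio and quantile scaling, totals without mitochondrially encoded or cytosolic ribosomal protein genes, each library left out, a replicate block, fits of the compared groups alone, no trend, array weights, adjusted p alone and subunits by symbol. Removal of GC and length trends and omission of CTR 2, TE 2 and SE 1, in which mitochondrially encoded genes took the largest share within their group, were chosen after seeing the data.

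Members and lists were chosen with earlier results of these data known. Members named in the text are the 10 largest rises and falls in the mean of the 4 treatments with an adjusted p under 0.05, the 3 largest called per treatment and the 3 most significant called per pair of treatments, the 5 highest and 5 lowest in abundance, the MRPS18 paralogues, members with a further role, 4 genes per related list and all regulators. Others were named after their values were seen. An immune marker, and the sum of its list, is not reported here.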

Additional observations from a re-analysis of the deposited data

How the results depend on the processing

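The counts of members past the fold depended most on the threshold and the scaling. By adjusted p alone 48 members passed with AE, 40 with TE, 61 with SE, 44 with HTyr and 59 in the mean of the 4 treatments, and 33, 37 and 39 differed between SE and AE, TE and HTyr. The shares of all genes higher and lower in these comparisons are given above. In what follows, brackets hold the share of all genes that passed the fold upwards under the same setting. Median-ratio scaling gave 5 with AE (8.05%), 14 with SE (13.4%) and 0 between SE and HTyr (2.17%). Quantile normalization gave 16 with SE (13.7%), 6 in the mean (8.95%) and 0 between SE and HTyr (2.36%). Without cytosolic ribosomal protein genes there were 3 with TE (6.13%), 14 with SE (12.9%), 4 with HTyr (6.23%), 5 in the mean (8.3%) and 1 between SE and HTyr (3.56%). That setting moved the median of all genes with SE from 0.09 to -0.02. With GC and length trends removed, there were 1 with AE (7.79%), 2 with TE (6.02%), 14 with SE, 1 of them lower (13.4%), and 4 in the mean (8.44%). Between SE and TE there were 2 (3.22%) and between SE and HTyr 1 (1.86%). The difference between large and small subunit medians was then 0.0177, and the change of MRPL42 turned from -0.16 to 0.012. The cause of these shifts was not tested.

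With each library left out in turn, the counts were 7 to 12 with AE, 4 to 7 with TE, 26 to 30 with SE, 6 to 8 with HTyr and 10 to 13 in the mean. Of all genes 9.85 to 11.0% rose with AE, 6.52 to 7.79% with TE, 16.1 to 17.4% with SE, 6.66 to 8.06% with HTyr and 9.69 to 10.8% in the mean. The counts between treatments are given next. They were 0 to 1 between SE and AE (1 without AE 3), 3 to 6 between SE and TE, and 1 to 5 between SE and HTyr (1 without HTyr 1, 5 without HTyr 3). Of all genes 1.6 to 1.98%, 4.15 to 4.96% and 3.72 to 6.04% were then higher with SE past the fold. The large minus small difference ran from -0.0547 to 0.0283. Member medians stayed positive under every alternative, from 0.15 to 0.32 with AE, 0.17 to 0.30 with TE, 0.32 to 0.53 with SE, 0.16 to 0.28 with HTyr and 0.20 to 0.33 in the mean. With replicate number as a block, the replicate block left 9, 6, 28, 7 and 12 members past the fold with AE, TE, SE, HTyr and in the mean, as without it. Libraries with the same number had residual correlations of -0.209 to 0.263 and 4 of 15 were closest to their own number, so the numbers were not taken as pairs. The unknown depth limits what can be said of the least abundant members.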
